A study of Mus musculus with 8 samples.

Results

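Gene expression of untreated salivary gland tumours was set against that of normal parotid gland, over transcription factors, transporters and channels, receptors, surface proteins and secreted factors. The comparison uses 4 of the 8 arrays of a mouse study of tumours induced by AKT, the kinase that carries signals from PI3K to mTOR. They are the arrays titled TUMOR 1 and TUMOR 2 (untreated tumour, n = 2) and those titled NORMALparotid and NORMALparotid 2 (normal parotid gland with no treatment, n = 2). The remaining 4 arrays hold tumours after 3 days (n = 1) and 14 days (n = 2) of rapamycin, an mTOR inhibitor, and a normal submandibular gland (n = 1). They entered the fit, where only the 14-day pair among them adds to the estimate of spread. They also took part in choosing which probes were kept and which probe stood for a gene. Strain, age, the promoter and cell type of the AKT allele, and the gland in which the tumours arose are not given in the sources used here. The labels do not say whether the arrays within a group stem from different animals. The p-values rest on a spread pooled over the groups with 2 arrays, the 14-day tumours among them, and moderated across genes. Replicate arrays correlated at 0.98 in untreated tumour, 0.93 in parotid and 0.99 after 14 days, so the pooled spread need not match that of parotid. The p-values measure only how the arrays at hand vary.

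The parotid is a mostly serous gland. Its acinar cells take up chloride at the basal side, release fluid and protein when muscarinic and beta-adrenergic receptors are engaged, and pass them to ducts that change the salt content of saliva. Transcription factors set which of these programmes a cell runs, while surface receptors and secreted ligands carry the exchange between epithelium and the surrounding tissue during gland growth.

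Each value below is a gene's processed signal on the log2 scale after the array's own 75th percentile was subtracted, so 0 is the level of a fairly bright probe and 1 unit is a doubling. A difference is untreated tumour minus parotid, given with its standard error from the fit. A gene was called when its Benjamini-Hochberg adjusted p from limma was under 0.05 over 16362 genes and its probe was well above background on both arrays of the higher group. By the adjusted p alone, 18.7% of all genes tested were higher in tumour and 20.3% lower. With the condition on background, 18.7% were called higher and 17.9% lower, and the median difference of all genes was 0.02. The condition matters because the signal at that percentile reached 966 and 972 units in the tumours, against 384 and 145 units in the parotid glands, so that a probe with no signal sits lower on the tumour arrays. The 309 genes that were dim on all 4 arrays had a median difference of -1.89, and 399 genes past the threshold with a lower value in tumour were set aside because they were not well above background in both parotid glands. Where a gene was not well above background on both arrays of its lower group, its change is given as a bound ("at least"). The bound takes, on each array of that group, the higher of the gene's own value and the lowest value seen among probes well above background.

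The tissue of the 2 groups was checked with marker lists. All 9 acinar and parotid secretory markers fell, and their summed signal, in multiples of the 75th percentile, was 74.8 and 129 in the tumours, against 3725 and 8542 in the parotid glands. Of 8 submandibular granular duct markers, such as the kallikrein Klk1, 5 fell, and they summed to 0.88 and 1.15 in the tumours, against 553 and 1043 in the parotid glands. Duct markers summed to 520 and 724 in the tumours, against 289 and 540 in the parotid glands, with 2 of 8 higher and 2 lower. The parotid arrays differed in other tissue. T cell markers summed to 10.8 and 4.60 in the tumours, against 123.1 and 9.29 in the parotid glands, and B and plasma cell markers to 0.33 and 0.24 in the tumours, against 109 and 58.4 in the parotid glands. Most of the T cell sums in the tumours came from Thy1, at 3.12 and 1.54. Of 10 T cell markers tested, 5 were well above background in each tumour, against 10 and 8 in the parotid glands. Skeletal muscle markers summed to 1.28 and 1.16 in the tumours, against 2.59 and 136 in the parotid glands. Adipocyte markers summed to 22.9 and 13.03 in the tumours, against 52.5 and 217 in the parotid glands. Nearly all of the adipocyte sums in the tumours came from Fabp4, at 4.47 and 3.70. Fibroblast markers summed to 132 and 46.3 in the tumours, against 157 and 243 in the parotid glands, and mast cell markers to 0.34 and 0.29 in the tumours, against 3.71 and 3.55 in the parotid glands. In whole tissue, fewer cells of a type and less RNA per cell cannot be told apart. Both tumours and parotid replicate 1 lay on slide 1 and parotid replicate 2 on slide 2. Y-linked genes were well above background in tumour replicate 1 and parotid replicate 2, and Xist in tumour replicate 2 and parotid replicate 1. The 2 arrays of each group thus came from animals of different sex.

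All 5 protein classes had a larger share of lower calls than the 17.9% of all genes, and their shares of higher calls were 15.4% to 21.2%, around the 18.7% of all genes. The share of lower calls was 27.1% for transcription factors, 26.8% for transporters and channels, 27.8% for receptors, 29.1% for surface proteins and 31.6% for secreted factors. The counts of single lists below are to be read against the shares of all genes, and several lists lay near them. Lipoprotein and endocytic receptors, for one, had 21.7% higher and 21.7% lower. Medians of classes and lists cover all genes tested, dim ones among them. The genes dim on all 4 arrays had a median difference of -1.89, so such medians can include a downward offset of dim probes. Of 35 potassium channels, 21 were lower by the adjusted p alone and 15 were called lower. For the 22 receptors through which nerves and hormones trigger secretion, these numbers were 13 and 9.

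**Figure D1:**
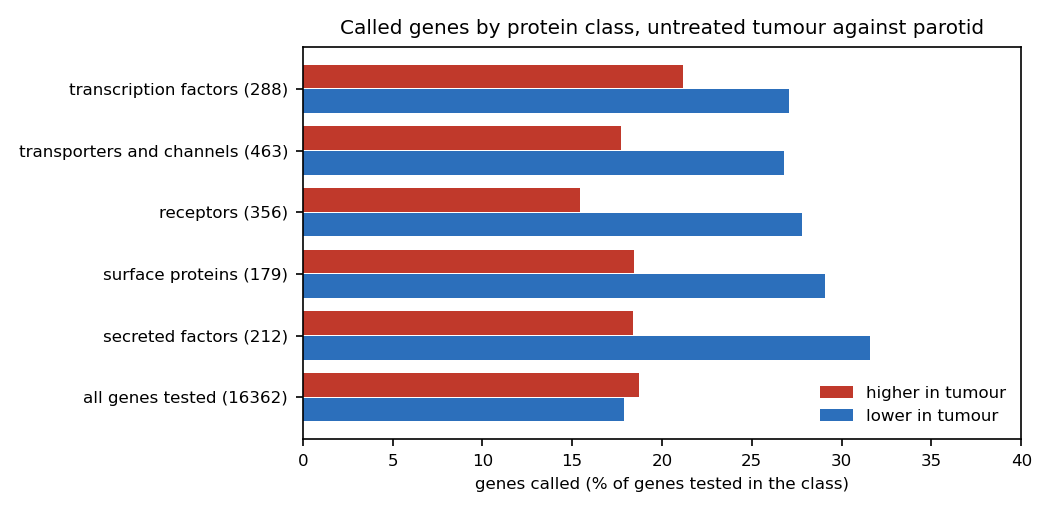
Horizontal bars give the percentage of tested genes in each protein class that were called higher (red) or lower (blue) in untreated tumour than in parotid gland, with the number tested in brackets and all genes tested in the bottom row. Lower calls exceed higher calls in all 5 classes, from 26.8% to 31.6% of the class, against 17.9% of all genes.

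Among transcription factors, 61 of 288 rose in untreated tumour and 78 fell, and the median difference was -0.39. When only probes well above background on all 4 arrays were kept, which leaves out genes dim in either group, 39 rose and 67 fell. Over all 11939 genes in that run, 2184 were higher and 2482 lower. How many members of a class that run held is not given. Its class counts, here and for the classes below, thus cannot be read as shares against all genes. The named factors that rose included Msx2, Tead2, Gata2, Sox4 and Sp6, and those that fell included Six2, Rxrg and Barx2. With tumour replicate 1 left out the counts were 35 higher and 48 lower, with tumour replicate 2 left out 34 and 41, with parotid replicate 1 left out 74 and 94, and with parotid replicate 2 left out 76 and 86.

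Homeobox factors, which set regional identity, moved in both directions (10 of 44 rose and 14 fell, with 6 to 13 and 10 to 16 when 1 array was left out). Msx2, a BMP-induced factor of tooth, hair and gland buds, stood at 2.71 and 2.10 in tumour, against -6.05 and -5.02 in parotid. Neither parotid value was well above background, and the rise was at least 63.5-fold (adjusted p = 0.000306). Dlx3, a factor of hair, tooth and skin differentiation, stood at -1.59 and -1.72 in tumour, against -5.65 and -4.77 in parotid, and rose at least 3.80-fold (adjusted p = 0.00227), a call that normexp background correction did not give (adjusted p = 0.410). Pbx3, a partner of Hox proteins, rose by 3.21 ± 0.26 in its brightest probe, while the differences of its probes ranged from -0.29 to 3.21. Pitx1, an oral epithelial factor chosen after its values were seen, stood at 6.74 and 6.96 in the untreated tumours, against 4.77 and 5.01 in the parotid glands, and rose by 1.96 ± 0.22 (adjusted p = 0.00145).

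Among homeobox genes that fell, Six2 is a factor of embryonic kidney and skull precursors. Six2 stood at -7.30 and -7.64 in tumour, against -1.25 and -0.66 in parotid, and fell at least 21.3-fold (adjusted p = 0.000394). Barx2, which acts in lacrimal and salivary gland branching, stood at -1.77 and -1.39 in tumour, against 3.73 and 4.15 in parotid. It fell by 5.52 ± 0.25 (adjusted p = 0.000111), with probe differences of -5.52 to -2.99.

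Of 14 Sox factors, 5 rose and 2 fell, and leaving out 1 array gave 2 to 5 higher and 0 to 3 lower. Sox4, which is widely expressed in progenitors and tumours, stood at 2.41 and 2.33 in the untreated tumours, against -2.27 and -2.46 in the parotid glands, and rose by 4.74 ± 0.24 (adjusted p = 0.000140). The 2 arrays of each group lay close together, and all 4 values were well above background. Sox7 stood at -0.47 and -0.38 in tumour, against -3.42 and -4.69 in parotid, and rose by 3.63 ± 0.48 (adjusted p = 0.00246). Parotid replicate 2 was not well above background for Sox7, and with that array set to the lowest value seen among its probes well above background the rise was 2.90. Sox9, a marker of ductal and distal progenitors, was present on all arrays at 2.00 and 1.53 in tumour, against 1.67 and 2.47 in parotid, and did not pass the test (difference -0.30 ± 0.32, adjusted p = 0.483). Sox2, a progenitor factor of salivary acini, was not well above background on any of the 4 arrays, so no fold is given.

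Gata2, Gata6, Tead2 and Sp6, from families that act in epithelial development, rose. Gata2, a factor of hair and other epithelial and blood progenitors, stood at 2.42 and 3.18 in the untreated tumours, against -2.28 and -3.39 in the parotid glands, and rose by 5.63 ± 0.45 (adjusted p = 0.000456). Gata6 stood at 2.37 and 1.40 in tumour, against -1.50 and -3.12 in parotid, and rose by 4.20 ± 0.60 (adjusted p = 0.00315). For both genes parotid replicate 2 was not well above background. Tead2, a DNA-binding partner of YAP, stood at 1.54 and 1.84 in tumour, against -3.49 and -4.04 in parotid, and rose by 5.45 ± 0.34 (adjusted p = 0.000238). Sp6, known from tooth and hair development, stood at 4.10 and 3.27 in the untreated tumours, against -1.18 and -2.42 in the parotid glands, and rose by 5.48 ± 0.48 (adjusted p = 0.000582). Tead2 was not well above background in parotid replicate 2, while Sp6 was on all 4 arrays.

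Id1, Smad6 and Hey1, which BMP or Notch signals are known to induce, also rose. Id1, a direct BMP target that blocks helix-loop-helix factors, stood at 3.26 and 3.40 in tumour, against 0.06 and -1.28 in parotid, and rose by 3.94 ± 0.43 (adjusted p = 0.00119). Smad6, which inhibits BMP signalling, stood at -0.26 and -0.29 in tumour, against -3.55 and -3.32 in parotid, and rose by 3.16 ± 0.32 (adjusted p = 0.000920), with parotid replicate 2 not well above background. Hey1, a Notch target, stood at 3.43 and 2.33 in the untreated tumours, against -0.45 and -0.78 in the parotid glands, and rose by 3.49 ± 0.39 (adjusted p = 0.00134). Of the 54 basic helix-loop-helix and Myc factors, 17 rose and 9 fell, and leaving out 1 array gave 10 to 18 higher and 4 to 10 lower. Myc stood at 2.66 and 2.54 in tumour, against 1.89 and 1.43 in parotid, and rose by 0.94 ± 0.23 (adjusted p = 0.0209). That small rise did not pass the test without tumour replicate 1 (adjusted p = 0.133) or without tumour replicate 2 (adjusted p = 0.102). Foxm1, which drives genes of the G2 and M phases, stood at 1.59 and 1.68 in tumour, against -2.02 and -3.18 in parotid, and rose by 4.23 ± 0.54 (adjusted p = 0.00203), with parotid replicate 2 not well above background.

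Bhlha15, Klf15, Klf9, Foxo1, Cebpa and Pax9, which come from several lists, fell. Of 19 Klf and Sp factors 6 rose and 6 fell, and of 22 forkhead factors 2 rose and 3 fell. Bhlha15 (Mist1), the acinar secretory factor, stood at 4.05 and 4.61 in the untreated tumours, against 6.17 and 7.44 in the parotid glands, and fell by 2.47 ± 0.44 (adjusted p = 0.00712), so its probe was still bright in both tumours. Klf15 and Klf9, which respond to glucocorticoids, fell by 3.76 ± 0.44 and 2.71 ± 0.36 (adjusted p = 0.00151 and 0.00234). Foxo1, which AKT phosphorylates and keeps out of the nucleus, stood at 0.73 and 0.88 in tumour, against 3.03 and 2.73 in parotid, and fell by 2.07 ± 0.21 (adjusted p = 0.000885). Cebpa, a factor of differentiated epithelium and fat, stood at -1.06 and -0.73 in tumour, against 1.71 and 1.64 in parotid, and fell by 2.57 ± 0.25 (adjusted p = 0.000786). Adipocyte markers were also lower in the tumours, and their part in the Cebpa result was not tested. Pax9, a factor of the pharyngeal and oral region, stood at 1.79 and 1.49 in the untreated tumours, against 3.76 and 3.64 in the parotid glands, and fell by 2.06 ± 0.21 (adjusted p = 0.000930).

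Trp63 and Snai2 fell as well, and of the 6 epithelial-mesenchymal transition and Ovol factors tested, 1 rose and 4 fell. Leaving out 1 array gave 0 to 1 higher and 1 to 4 lower. Trp63, which keeps basal and myoepithelial cells, stood at -3.08 and -3.10 in tumour, against 0.07 and 1.20 in parotid, and fell by 3.73 ± 0.41 (adjusted p = 0.00128). Trp63 was well above background on all 4 arrays. Of the 6 other basal and myoepithelial markers tested, the contractile genes Cnn1, Myh11 and Mylk fell, whereas Krt5, Krt14 and Acta2 did not pass the test. These 6 summed to 32.1 and 17.3 in the tumours, against 27.3 and 108 in the parotid glands. Snai2 (Slug) stood at -1.32 and -2.12 in tumour, against 0.95 and 1.12 in parotid, and fell by 2.75 ± 0.31 (adjusted p = 0.00139). Tbx21, a factor of T helper and natural killer cells, stood at -4.74 and -5.25 in the untreated tumours, against 0.26 and -1.05 in the parotid glands, and fell by 4.61 ± 0.50 (adjusted p = 0.00123). Lyl1, a blood cell factor, fell by 2.54 ± 0.37 (adjusted p = 0.00335), and Relb by 1.82 ± 0.27 (adjusted p = 0.00351). The lymphocyte markers given above moved the same way, and their part in the results of these 3 genes was not tested. Without parotid replicate 1, which held the most T cell signal, the Tbx21 difference was -3.95.

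Nuclear receptors, which answer to steroid, retinoid and lipid ligands, had 3 of 34 higher and 17 lower, with a median of -1.09. Leaving out 1 array gave 1 to 4 higher and 10 to 19 lower. Rxrg, a retinoid X receptor, stood at -7.25 and -7.69 in tumour, against -0.25 and -1.27 in parotid, was not well above background in either tumour, and fell at least 24.4-fold (adjusted p = 0.000277). Nr3c1, the glucocorticoid receptor, which was chosen after its values were seen, stood at 0.62 and 0.70 in tumour, against 2.37 and 1.94 in parotid, and fell by 1.50 ± 0.23 (adjusted p = 0.00395). Among those that rose was Nr2e3, known as a photoreceptor factor, at -0.90 and 2.00 in the untreated tumours, against -5.98 and -4.95 in the parotid glands. The rise of Nr2e3 was at least 17.6-fold (adjusted p = 0.00515), and the tumours differed from each other by almost 3 units.

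**Figure D2:**
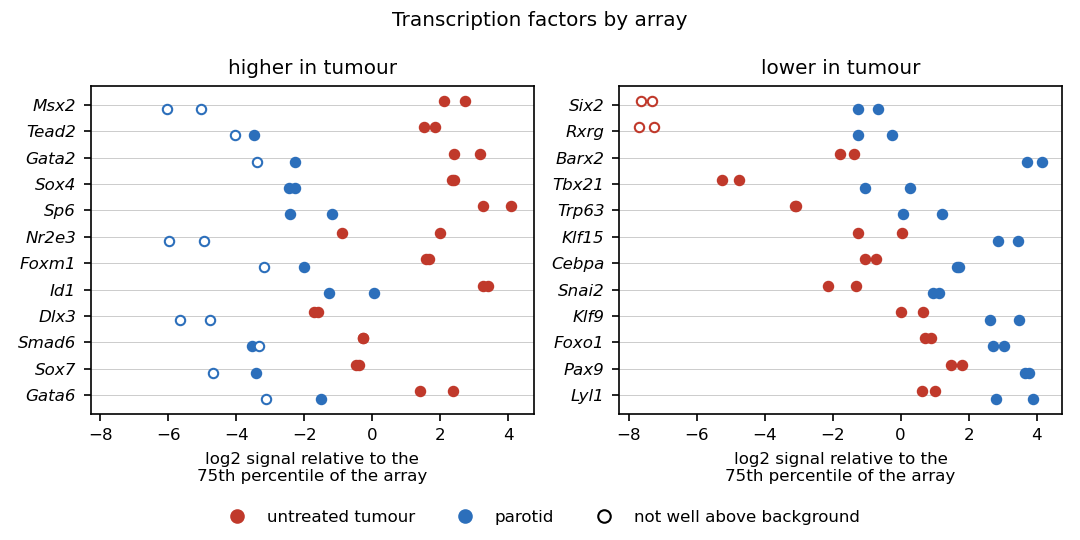
Each row is a transcription factor and each dot 1 array, at its log2 signal relative to the 75th percentile of the array, for the 12 genes with the widest gap between groups among the described genes that were higher (left panel) or lower (right panel) in untreated tumour. Red dots are the 2 untreated tumours, blue dots the 2 parotid glands, and open dots are not well above background. Msx2, at the top of the left panel, has both red dots above 2 and both blue dots open and below -5.

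Among transporters and channels, 82 of 463 rose in untreated tumour and 124 fell, with a median difference of -0.52. Those that fell included the chloride loader Slc12a2 and the fructose carrier Slc2a5. Those that rose included the amino acid carrier Slc38a4, the anoctamin Ano9, the exporters Abcb1a, Abcb4 and Abcg2 and the calcium and manganese pump Atp2c2. With tumour replicate 1 left out the counts were 38 higher and 78 lower, with tumour replicate 2 left out 44 and 76, with parotid replicate 1 left out 95 and 168, and with parotid replicate 2 left out 114 and 129. Normexp background correction gave 50 higher calls, and keeping only probes well above background on all 4 arrays gave 40 higher and 98 lower.

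Amino acid carriers had 6 of 38 higher and 12 lower, with 4 to 8 and 8 to 19 when 1 array was left out. Slc38a4, a system A carrier of neutral and cationic amino acids, stood at 3.24 and 2.89 in tumour, against -4.34 and -4.20 in parotid. Neither parotid value was well above background, and the rise was at least 100.1-fold (adjusted p = 8.99e-05). Slc6a15, a carrier of branched-chain amino acids and proline, rose at least 14.9-fold (adjusted p = 0.000771), and Slc6a2, the noradrenaline carrier, at least 12.3-fold (adjusted p = 0.00260). In the other direction, Slc1a3, a glutamate and aspartate carrier, stood at -4.57 and -4.03 in tumour, against 1.83 and 2.17 in parotid, and fell by 6.31 ± 0.30 (adjusted p = 0.000131).

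The sugar carriers had 1 rise and 7 falls among 18, and leaving out 1 array gave 1 higher and 6 to 7 lower. Slc2a1 (GLUT1), the general glucose carrier, was the one that rose: it stood at 4.14 and 3.98 in the untreated tumours, against 2.23 and 2.11 in the parotid glands, a difference of 1.89 ± 0.19 (adjusted p = 0.000882). Slc2a5 (GLUT5), the fructose carrier, stood at -6.89 and -7.13 in tumour, against 4.69 and 6.09 in parotid. It was bright in both parotid glands and not well above background in either tumour, and fell at least 1732-fold (adjusted p = 8.02e-05). Slc5a8, a sodium-coupled carrier of lactate and short fatty acids, stood at -3.80 and -3.55 in tumour, against 1.93 and 2.32 in parotid, and fell by 5.80 ± 0.27 (adjusted p = 0.000121). Slc16a7 (MCT2), a carrier of lactate and pyruvate, stood at -1.90 and -2.13 in the untreated tumours, against 2.51 and 2.46 in the parotid glands, and fell by 4.50 ± 0.23 (adjusted p = 0.000140), with the 2 arrays of each group close together.

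Of 36 inorganic ion and acid-base carriers 8 rose (22.2%) and 9 fell (25.0%). Of 39 P-type pumps and their subunits 7 rose and 7 fell (17.9% each), shares near those of all genes. Leaving out 1 array gave 4 to 9 and 4 to 12 for the carriers, and 3 to 9 and 5 to 13 for the pumps. Slc12a2 (NKCC1), which loads acinar cells with chloride, stood at 1.30 and 1.34 in tumour, against 5.37 and 5.15 in parotid, and fell by 3.94 ± 0.21 (adjusted p = 0.000152). Slc12a8 fell by 3.05 ± 0.26 (adjusted p = 0.000564). Fxyd2, the gamma subunit that tunes the sodium pump, stood at -7.39 and -7.76 in tumour, against 1.85 and 2.45 in parotid, was not well above background in the tumours, and fell at least 183-fold (adjusted p = 4.96e-05). Fxyd1, also expressed in muscle, fell at least 27.8-fold (adjusted p = 0.00110), and its difference without the muscle-rich parotid replicate 2 was -5.66. Aqp5, the water channel of acinar cells, stood at 5.65 and 5.36 in the untreated tumours, against 6.73 and 7.34 in the parotid glands. Its fall of 1.53 ± 0.29 (adjusted p = 0.00839) left it bright in both tumours and was not called without tumour replicate 2 (adjusted p = 0.0776).

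The list of chloride channels and anoctamins had 13 of 34 higher and 8 lower, and leaving out 1 array gave 8 to 14 higher and 3 to 9 lower. Ano9, a member of the anoctamin (TMEM16) family, stood at 2.08 and 2.10 in tumour, against -5.99 and -4.92 in parotid, and rose at least 50.8-fold (adjusted p = 0.000233). Clic6, of the intracellular chloride channel family, stood at 6.87 and 7.33 in tumour, against 0.61 and 1.81 in parotid, and rose by 5.89 ± 0.40 (adjusted p = 0.000299), from a level already well above background in parotid. Ttyh1 rose at least 14.9-fold in its brightest probe (adjusted p = 0.000640), with probe differences of 1.14 to 4.91. Among water channels and connexins, the intracellular aquaporin Aqp11 stood at 0.03 and -0.22 in the untreated tumours, against -4.11 and -4.70 in the parotid glands, and rose at least 11.2-fold (adjusted p = 0.000623).

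Potassium channels were lower in 15 of 35 cases and higher in 4, with a median of -2.04, and leaving out 1 array gave 11 to 16 lower and 0 to 6 higher. Kcna1, a voltage-gated channel, stood at -7.26 and -7.60 in tumour, against -0.69 and 0.26 in parotid, and fell at least 35.6-fold (adjusted p = 0.000216). Trpv6, an epithelial calcium entry channel, stood at -7.34 and -7.74 in tumour, against -0.57 and 1.81 in parotid, fell at least 63.4-fold (adjusted p = 0.000713), and differed between the parotid arrays by more than 2 units. P2rx4, an ATP-gated channel of acinar cells, stood at 0.88 and 1.27 in the untreated tumours, against 2.89 and 3.75 in the parotid glands, and fell by 2.25 ± 0.32 (adjusted p = 0.00317). Slc17a9, which loads ATP into secretory vesicles, stood at -0.86 and -0.85 in tumour, against 3.09 and 3.16 in parotid, and fell by 3.98 ± 0.20 (adjusted p = 0.000140). Atp2a3 (SERCA3), an endoplasmic reticulum calcium pump, fell by 3.67 ± 0.45 (adjusted p = 0.00183).

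Abcb1a, which encodes a P-glycoprotein of the mouse, stood at 1.04 and 0.32 in tumour, against -6.02 and -5.05 in parotid, and rose at least 19.2-fold (adjusted p = 0.000493). Abcb4, the phospholipid exporter, stood at 3.82 and 3.25 in the untreated tumours, against -0.64 and -1.09 in the parotid glands, and rose by 4.40 ± 0.28 (adjusted p = 0.000254). Abcg2, an exporter of drugs and porphyrins, stood at 3.58 and 3.39 in tumour, against 0.30 and -0.49 in parotid, and rose by 3.59 ± 0.30 (adjusted p = 0.000524). Abcb1a was not well above background in either parotid gland, whereas Abcb4 and Abcg2 were on all 4 arrays. Of the ABC transporters as a list, 9 of 33 rose and 6 fell, and leaving out 1 array gave 4 to 15 higher and 4 to 9 lower. Atp2c2, a calcium and manganese pump of the secretory pathway, stood at 2.43 and 2.41 in tumour, against -3.54 and -3.28 in parotid, and rose by 5.83 ± 0.27 (adjusted p = 0.000113), with parotid replicate 2 not well above background. Atp7a, a copper pump, stood at 3.01 and 3.20 in the untreated tumours, against 0.35 and 0.16 in the parotid glands, and rose by 2.86 ± 0.20 (adjusted p = 0.000325). Slc40a1 (ferroportin), the iron exporter, stood at 1.12 and 1.62 in tumour, against -0.86 and -1.99 in parotid, and rose by 2.79 ± 0.45 (adjusted p = 0.00475).

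**Figure D3:**
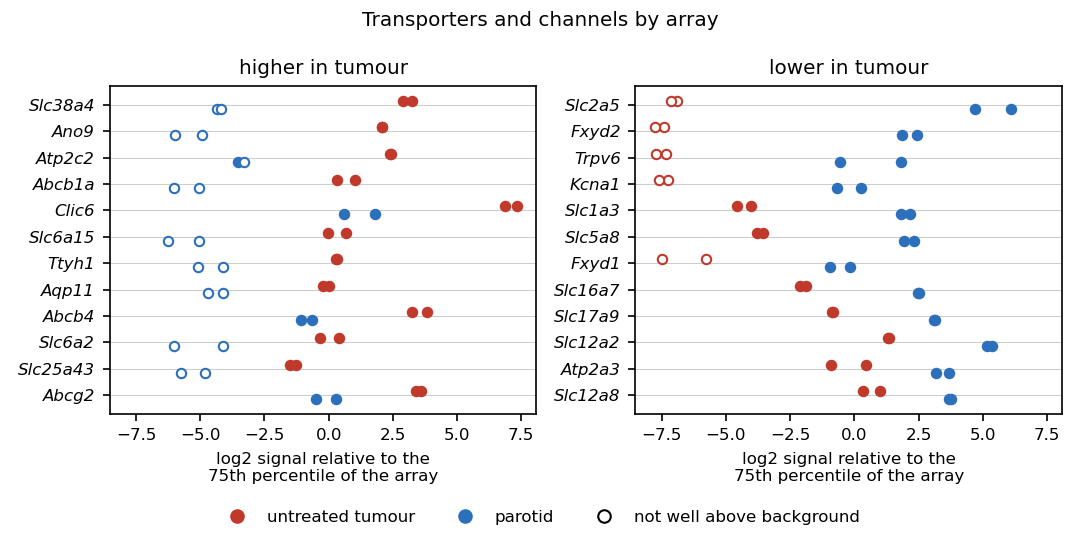
Each row is a transporter or channel gene and each dot 1 array, at its log2 signal relative to the 75th percentile of the array, for the 12 genes with the widest gap among the described genes that were higher (left panel) or lower (right panel) in untreated tumour. Red dots are the 2 untreated tumours, blue dots the 2 parotid glands, and open dots are not well above background. Slc2a5 and Fxyd2 have both parotid dots above 1 and both tumour dots below -6, while Slc38a4 and Ano9 show the reverse order.

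Among receptors, 55 of 356 rose in untreated tumour and 99 fell, with a median difference of -0.65. Those that rose included Tnfrsf19, Edar, Lgr6, Unc5b and Plxnb1, and those that fell included Adrb1, Ntrk2, Egfr and Ghr. With tumour replicate 1 left out the counts were 32 higher and 63 lower, with tumour replicate 2 left out 34 and 58, with parotid replicate 1 left out 65 and 113, and with parotid replicate 2 left out 81 and 109. Normexp background correction gave 62 lower calls, and keeping only probes well above background on all 4 arrays gave 32 higher and 79 lower.

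Receptor tyrosine kinases outside the Eph family had 4 of 35 higher and 13 lower, with 1 to 8 and 8 to 15 when 1 array was left out. Fgfrl1, a fibroblast growth factor receptor with no kinase domain, stood at 4.15 and 4.14 in tumour, against 0.47 and 0.38 in parotid, and rose by 3.72 ± 0.19 (adjusted p = 0.000140). Ntrk2 (TrkB), the receptor for brain-derived neurotrophic factor, stood at -3.0 and -3.73 in the untreated tumours, against 4.74 and 3.99 in the parotid glands, and fell by 7.73 ± 0.37 (adjusted p = 0.000132). Egfr, which drives branching of the gland and binds salivary epidermal growth factor, stood at -1.31 and -2.12 in tumour, against 1.12 and 2.50 in parotid, and fell by 3.52 ± 0.50 (adjusted p = 0.00298). For Ntrk2 and Egfr all 4 arrays were well above background. Kit, a receptor of duct progenitors and of mast cells, was chosen after its values were seen. It stood at -1.40 and -1.39 in tumour, against 0.64 and 0.57 in parotid, and fell by 1.99 ± 0.26 (adjusted p = 0.00243), and 3 of 4 mast cell markers tested also fell, whose part in the result was not tested. Met, the receptor for hepatocyte growth factor, stood at 2.49 and 2.67 in the untreated tumours, against 0.51 and 2.28 in the parotid glands, and did not pass the test (1.19 ± 0.54, adjusted p = 0.125). Fgfr2, whose ligands Fgf7 and Fgf10 guide gland growth, stood at -0.06 and -0.97 in tumour, against -0.39 and -0.36 in parotid, with overlapping groups (-0.14 ± 0.36, adjusted p = 0.787).

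Eph receptors and ephrins, which sort cells at contacts, had 7 of 18 higher and 4 lower, with 4 to 7 and 3 to 4 when 1 array was left out. Epha4 stood at 1.05 and 0.63 in tumour, against -2.11 and -2.30 in parotid, and rose by 3.05 ± 0.41 (adjusted p = 0.00257). The ligand Efna4 stood at 1.85 and 1.82 in the untreated tumours, against -1.89 and -0.57 in the parotid glands, and rose by 3.07 ± 0.45 (adjusted p = 0.00345). Ephb3, known as a Wnt target in intestine, stood at 3.02 and 2.67 in tumour, against 0.36 and 0.82 in parotid, and rose by 2.26 ± 0.25 (adjusted p = 0.00127). Epha5 fell by 3.86 ± 0.34 (adjusted p = 0.000568) and Ephb6, which lacks kinase activity, by 3.07 ± 0.36 (adjusted p = 0.00151).

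Receptors through which nerves and hormones trigger secretion fell in 9 of 22 cases and rose in 2, with a median of -2.01, and leaving out 1 array gave 6 to 9 lower and 1 to 3 higher. Adrb1, the beta-adrenergic receptor that triggers protein release in parotid acini, stood at -1.29 and -1.31 in tumour, against 2.23 and 1.97 in parotid, and fell by 3.40 ± 0.21 (adjusted p = 0.000238). P2ry1, an ADP receptor, stood at -6.30 and -7.61 in the untreated tumours, against -1.07 and -1.18 in the parotid glands, and fell at least 18.9-fold (adjusted p = 0.000584). Chrm3, the muscarinic receptor of fluid secretion, stood at -7.15 and -7.51 in tumour, against -3.25 and -2.91 in parotid, but was well above background only in parotid replicate 1, so it was not called. Adora1, an adenosine receptor of nerve and fat cells, stood at -4.31 and -1.26 in tumour, against 4.08 and 4.68 in parotid. The parotid values were close together and the tumours differed by 3 units, and the fall was 7.17 ± 0.90 (adjusted p = 0.00199), against -5.64 without tumour replicate 1. Hrh3, a histamine receptor, was one of the 2 that rose, at 0.26 and 0.78 in the untreated tumours, against -5.28 and -3.82 in the parotid glands, by at least 17.1-fold (adjusted p = 0.00148).

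Cytokine receptors, a family that serves both hormones and immune cells, had 1 of 41 higher and 18 lower, with a median of -1.35, and leaving out 1 array gave 0 to 3 higher and 11 to 24 lower. Ghr, the growth hormone receptor, stood at -0.04 and 0.34 in tumour, against 3.90 and 4.03 in parotid, and fell by 3.82 ± 0.23 (adjusted p = 0.000205). Prlr, the prolactin receptor, stood at -5.14 and -2.89 in tumour, against 0.46 and 0.18 in parotid, and fell by 4.33 ± 0.70 (adjusted p = 0.00491), with tumour replicate 1 not well above background. Both were chosen after their values were seen. Il2rb, a receptor of lymphocytes, stood at -4.60 and -4.55 in the untreated tumours, against 2.62 and 0.28 in the parotid glands, and fell by 6.03 ± 0.71 (adjusted p = 0.00161). T cell markers summed to 123.1 in parotid replicate 1, and without that array the Il2rb difference was -4.85. Tnfrsf13b (TACI), a B cell receptor, fell by 3.72 ± 0.69, and by 2.63 without parotid replicate 1. The part of lymphocytes in these results was not tested.

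Of 26 TNF receptors, 7 rose and 4 fell, and leaving out 1 array gave 5 to 9 higher and 3 to 8 lower. Tnfrsf19 and Edar are related receptors of the ectodysplasin type. Tnfrsf19 (Troy) stood at 4.49 and 4.48 in tumour, against -4.26 and -1.46 in parotid, and rose by 7.35 ± 0.82 in its brightest probe (adjusted p = 0.00130), with parotid replicate 1 not well above background and probe differences of 3.20 to 7.35. Edar, the receptor that starts hair, tooth and gland buds and is needed for salivary branching in mice, stood at -0.64 and -0.37 in tumour, against -4.65 and -3.78 in parotid, and rose at least 8.42-fold (adjusted p = 0.00435). Ngfr (p75), a receptor for neurotrophins, stood at 2.07 and 1.96 in the untreated tumours, against -0.38 and -0.998 in the parotid glands, and rose by 2.70 ± 0.26 (adjusted p = 0.000751), with 5.30 on the single submandibular array. Fas, the death receptor, stood at -2.64 and -2.99 in tumour, against 1.13 and 0.99 in parotid, and fell by 3.87 ± 0.27 (adjusted p = 0.000322).

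The promoters of these 2 receptors are shown because each holds the core of the site bound by TCF and LEF factors, the nuclear end of Wnt signalling. They are the 250 bases before the transcription start in RefSeq (build GRCm38.p6), with the motif CTTTGAT, or ATCAAAG where it lies on the opposite strand, in capitals. Edar lies at chr10:58675697-58675946, minus strand, with the motif on the gene's own strand 226 bases before the start. Tnfrsf19 lies at chr14:61037988-61038237, minus strand, with the motif on the opposite strand 195 bases before the start.
Edar: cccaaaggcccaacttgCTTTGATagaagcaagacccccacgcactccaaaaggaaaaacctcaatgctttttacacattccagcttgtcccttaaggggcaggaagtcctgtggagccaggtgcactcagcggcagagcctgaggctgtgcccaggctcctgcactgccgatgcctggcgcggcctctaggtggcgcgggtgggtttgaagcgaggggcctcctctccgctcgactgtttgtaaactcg
Tnfrsf19: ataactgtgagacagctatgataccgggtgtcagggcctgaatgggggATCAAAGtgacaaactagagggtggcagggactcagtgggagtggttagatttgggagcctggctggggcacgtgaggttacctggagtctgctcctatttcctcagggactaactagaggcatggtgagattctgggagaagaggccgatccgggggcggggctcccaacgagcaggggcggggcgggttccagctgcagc
Over both strands, 1005 of 27025 genes held the motif in at least 1 promoter of this length (3.72%). Of the named genes that rose and had a promoter in the table, 7 of 100 held it (7%), which were Edar, Tnfrsf19, Mst1r, Htr2b, Slc19a3, Slc25a43 and Slc27a3. Under normexp background correction Edar, Tnfrsf19 and Mst1r were still called, whereas Htr2b, Slc19a3, Slc25a43 and Slc27a3 were not (adjusted p = 0.880, 0.836, 0.328 and 0.233). Without tumour replicate 1 the calls of Mst1r, Htr2b, Slc19a3 and Slc27a3 were lost (adjusted p = 0.0637, 0.217, 0.167 and 0.122), and without tumour replicate 2 those of Htr2b, Slc19a3 and Slc27a3 (adjusted p = 0.141, 0.0762 and 0.128). Not every named gene had a promoter to scan. Of those that did, none of the 126 that fell held the motif, and none of the 16 transcription factors that rose. A match describes letters in this window and not a bound site.

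Among BMP and TGF-beta receptors, 2 of 14 rose and 3 fell, with 2 to 3 and 1 to 3 when 1 array was left out. Bambi, a decoy receptor that is induced by BMP and Wnt signals, stood at 2.89 and 2.67 in tumour, against -1.71 and -2.88 in parotid, and rose by 5.08 ± 0.42 (adjusted p = 0.000515), with parotid replicate 2 not well above background. Bmpr1b, a BMP receptor, stood at -1.76 and -1.79 in the untreated tumours, against -6.04 and -5.04 in the parotid glands, and rose at least 3.49-fold (adjusted p = 0.00252), a call that normexp background correction did not give (adjusted p = 0.445). Tgfbr2, the TGF-beta receptor, stood at 0.92 and 0.80 in tumour, against 3.43 and 2.39 in parotid, and fell by 2.05 ± 0.35 (adjusted p = 0.00606).

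Orphan and adhesion G protein-coupled receptors had 10 of 55 higher and 9 lower, shares near those of all genes, with 6 to 15 and 4 to 13 when 1 array was left out. Lgr6, an R-spondin receptor of skin and hair stem cells, stood at 0.84 and 0.59 in tumour, against -5.95 and -4.90 in parotid, and rose at least 19.7-fold (adjusted p = 0.000598). Adgrf4, an adhesion receptor of stratified epithelium, stood at 0.89 and 0.58 in the untreated tumours, against -6.16 and -4.95 in the parotid glands, and rose at least 19.9-fold (adjusted p = 0.000559). Neither was well above background in a parotid gland. Of 23 lipoprotein and endocytic receptors 5 rose and 5 fell, with 3 to 10 and 2 to 7 when 1 array was left out. Lrp8, a reelin receptor, stood at -0.08 and -0.50 in tumour, against -6.22 and -5.13 in parotid, and rose at least 9.76-fold (adjusted p = 0.00105), and Lrp4, which holds back Wnt signals in tooth and mammary buds, stood at 0.58 and 0.47 in tumour, against -2.33 and -2.93 in parotid, and rose by 3.15 ± 0.33 (adjusted p = 0.00110), with parotid replicate 2 not well above background.

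Axon guidance receptors and ligands, many of which also act in epithelial branching, had 8 of 43 higher, a share near that of all genes, and 11 lower, with 5 to 11 and 5 to 13 when 1 array was left out. The secreted semaphorin Sema3b stood at 5.13 and 4.52 in the untreated tumours, against -0.18 and 0.21 in the parotid glands, and rose by 4.81 ± 0.27 (adjusted p = 0.000184). Unc5b, a netrin receptor, stood at 2.03 and 1.89 in tumour, against -2.01 and -2.74 in parotid, and rose by 4.33 ± 0.36 (adjusted p = 0.000523). Plxnb1, a semaphorin receptor, stood at 1.44 and 1.21 in tumour, against -2.72 and -2.20 in parotid, and rose by 3.78 ± 0.30 (adjusted p = 0.000444). All 3 were well above background on all 4 arrays. The related netrin receptor Unc5a went the other way, at -1.55 and -1.04 in the untreated tumours, against 3.26 and 4.22 in the parotid glands, and fell by 5.03 ± 0.36 (adjusted p = 0.000347). Slit2, a repellent ligand, stood at -4.43 and -7.67 in tumour, against 0.42 and 0.58 in parotid, and fell by 6.54 ± 0.95 (adjusted p = 0.00334). Tumour replicate 2 was not well above background for Slit2, and with that array set to the lowest value seen among its probes well above background the fall was 5.51. The Slit2 probe differences ranged from -6.54 to -2.67.

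Among surface proteins, 33 of 179 rose in untreated tumour and 52 fell, with a median difference of -0.65. With tumour replicate 1 left out the counts were 19 higher and 34 lower, with tumour replicate 2 left out 20 and 30, with parotid replicate 1 left out 33 and 64, and with parotid replicate 2 left out 47 and 56. Normexp background correction gave 21 higher calls, and keeping only probes well above background on all 4 arrays gave 19 higher and 45 lower. Lypd3 (C4.4A), a GPI-anchored protein of squamous epithelium and carcinomas, stood at 1.55 and 1.31 in tumour, against -4.41 and -5.31 in parotid, and rose at least 32.3-fold (adjusted p = 0.000238). Kirrel3, an immunoglobulin-type adhesion protein, stood at 0.06 and 0.15 in the untreated tumours, against -6.21 and -4.99 in the parotid glands, and rose at least 12.9-fold (adjusted p = 0.000657). Neither was well above background in a parotid gland.

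Cdh1, Gpc1, Adam8 and Tspan1 rose and were well above background on all 4 arrays. Cdh1 (E-cadherin) stood at 4.30 and 4.58 in tumour, against 2.01 and 2.86 in parotid, and rose by 2.01 ± 0.31 (adjusted p = 0.00438). Gpc1, a glypican that binds growth factors, stood at 4.16 and 4.14 in tumour, against 0.70 and 0.25 in parotid, and rose by 3.67 ± 0.22 (adjusted p = 0.000208). Adam8, a metalloprotease of leukocytes and tumours, stood at 3.98 and 3.84 in the untreated tumours, against 1.94 and 0.69 in the parotid glands, and rose by 2.59 ± 0.43 (adjusted p = 0.00526). Of the cadherin list, 5 of 32 rose and 1 fell, with 3 to 7 and 0 to 2 when 1 array was left out. Tspan1, a tetraspanin of secretory epithelium, stood at 3.28 and 4.59 in tumour, against -0.22 and 0.06 in parotid, and rose by 4.02 ± 0.43 (adjusted p = 0.00110), while the single submandibular array read 3.89, within the range of the tumours.

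Epithelial antigens and transmembrane mucins had 10 of 48 higher and 21 lower, with 2 to 11 and 15 to 22 when 1 array was left out. Cd55, which protects cells from complement, stood at -7.06 and -5.58 in tumour, against 0.44 and -1.43 in parotid, and fell at least 28.98-fold (adjusted p = 0.00227). Mme (neprilysin), a peptidase of myoepithelial and stromal cells, stood at -7.31 and -7.62 in the untreated tumours, against -1.66 and -1.89 in the parotid glands, and fell at least 12.04-fold (adjusted p = 0.000292), a call not given by normexp background correction (adjusted p = 0.101). Tetraspanins had 3 of 27 higher and 11 lower, with 2 to 6 and 3 to 13 when 1 array was left out. Tspan8 stood at -4.21 and -3.53 in tumour, against -0.16 and -0.54 in parotid, and fell by 3.52 ± 0.35 (adjusted p = 0.000884). Tspan13 stood at 1.74 and 1.61 in tumour, against 4.55 and 5.30 in parotid, and fell by 3.25 ± 0.33 (adjusted p = 0.000907), with all 4 arrays well above background.

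**Figure D4:**
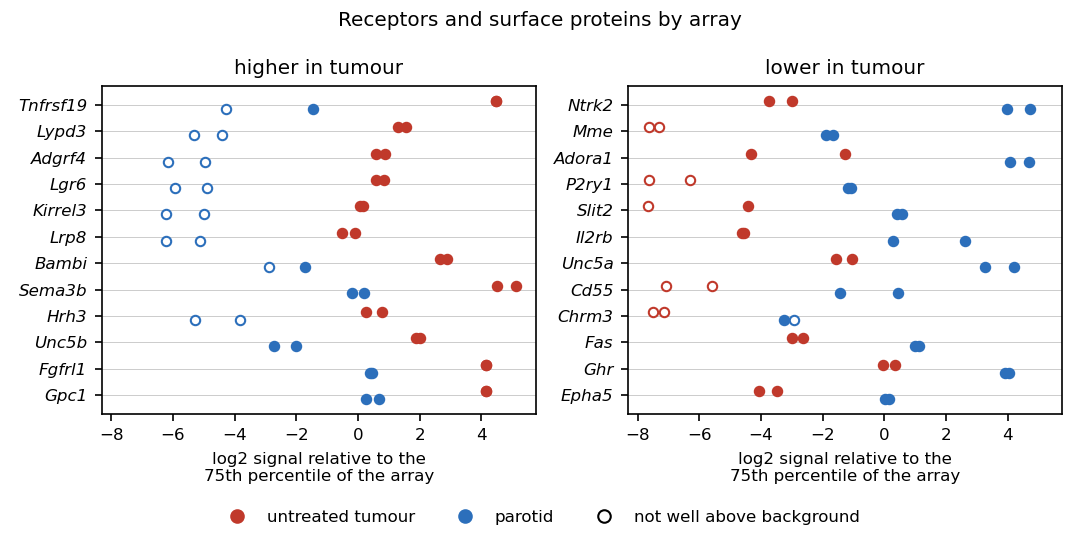
Each row is a receptor or surface protein gene and each dot 1 array, at its log2 signal relative to the 75th percentile of the array, for the 12 genes with the widest gap among the described genes that were higher (left panel) or lower (right panel) in untreated tumour. Red dots are the 2 untreated tumours, blue dots the 2 parotid glands, and open dots are not well above background. On the left the red dots of Tnfrsf19 lie together at 4.49 and 4.48 and its blue dots lie apart at -4.26 and -1.46, and on the right Ntrk2 is the gene with the widest gap, while Chrm3, with an open blue dot, was lower but not called.

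Among secreted factors, 39 of 212 rose in untreated tumour and 67 fell, with a median difference of -0.56. When only probes well above background on all 4 arrays were kept, 18 rose and 43 fell. Those that rose included Fgf20, Shh, Bmp4, Ptn and Igf2, and those that fell included Fgf7, Fgf10, Agt and Cck. With tumour replicate 1 left out the counts were 24 higher and 60 lower, with tumour replicate 2 left out 32 and 46, with parotid replicate 1 left out 45 and 79, and with parotid replicate 2 left out 49 and 69.

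Fgf20, which acts downstream of ectodysplasin in hair and tooth buds, stood at 0.23 and -0.34 in the untreated tumours, against -6.17 and -5.16 in the parotid glands, and rose at least 11.5-fold (adjusted p = 0.000735). It was not well above background in either parotid gland. Fgf10 and Fgf7, mesenchymal ligands of Fgfr2, stood in the reverse order. Fgf10 stood at -7.24 and -7.58 in tumour, against -2.18 and -2.26 in parotid, and fell at least 8.89-fold (adjusted p = 0.000493), and Fgf7 stood at -7.12 and -7.40 in tumour, against -2.40 and -2.39 in parotid, and fell at least 7.83-fold (adjusted p = 0.000519). Both calls were lost under normexp background correction (adjusted p = 0.297 and 0.390). Of 8 fibroblast markers, Dcn, Lum, Pdgfra and Dpt also fell, whereas Col1a1, Col1a2, Col3a1 and Pdgfrb did not pass the test. The part of fibroblasts in the result was not tested.

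Shh, the ligand of tooth, hair and gland buds, stood at -1.09 and -2.19 in the untreated tumours, against -6.06 and -5.14 in the parotid glands, and rose at least 3.85-fold (adjusted p = 0.00337), but was not called with normexp background correction (adjusted p = 0.197). Smo, which passes the hedgehog signal on, stood at 0.06 and 0.56 in tumour, against 2.96 and 4.38 in parotid, and fell by 3.36 ± 0.46 (adjusted p = 0.00275). Over the hedgehog list of 9 tested, 2 rose (22.2%) and 3 fell (33.3%), against 18.7% and 17.9% of all genes.

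Of 21 TGF-beta and BMP ligands, 8 rose and 5 fell, with 4 to 9 and 5 to 7 when 1 array was left out. Bmp4 stood at 1.23 and 0.46 in tumour, against -2.44 and -2.26 in parotid, and rose by 3.19 ± 0.36 (adjusted p = 0.00135). Inhba, the subunit of activin A, stood at -0.17 and -1.60 in the untreated tumours, against -4.32 and -5.26 in the parotid glands, and rose at least 6.48-fold (adjusted p = 0.00389). Inha, the alpha subunit that turns activins into inhibins, stood at -6.87 and -7.89 in tumour, against -1.17 and 0.26 in parotid, and fell at least 30.2-fold (adjusted p = 0.000610). BMP and TGF-beta antagonists had 3 of 17 higher and 8 lower, with 2 to 4 and 5 to 9 when 1 array was left out. Chrdl1, a BMP antagonist, stood at 2.82 and 2.12 in tumour, against -0.26 and -0.34 in parotid, and rose by 2.77 ± 0.33 (adjusted p = 0.00160), while Bmper stood at -3.34 and -5.13 in the untreated tumours, against -0.47 and 0.41 in the parotid glands, and fell by 4.21 ± 0.70 (adjusted p = 0.00546).

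Ptn (pleiotrophin), a heparin-binding factor, stood at 3.095 and 3.01 in tumour, against -3.12 and -3.17 in parotid, and rose by 6.20 ± 0.27 (adjusted p = 0.000102), with parotid replicate 2 not well above background. Igf2, an insulin-like growth factor of the fetus, stood at 2.02 and 4.65 in tumour, against -1.75 and -1.88 in parotid, and rose by 5.14 ± 0.77 (adjusted p = 0.00377). The 2 tumours differed in Igf2 by more than 2 units, and the difference was 3.83 without tumour replicate 2. Igfbp4, which binds insulin-like growth factors, stood at 2.44 and 2.42 in the untreated tumours, against -0.66 and -1.60 in the parotid glands, and rose by 3.56 ± 0.36 (adjusted p = 0.000930), and Igfbp5, another binding protein, stood at 1.37 and 0.03 in tumour, against 3.09 and 3.93 in parotid, and fell by 2.81 ± 0.49 (adjusted p = 0.00636). Spp1 (osteopontin), a matrix cytokine, stood at 5.19 and 4.88 in tumour, against -0.16 and 0.60 in parotid, and rose by 4.82 ± 0.33 (adjusted p = 0.000292). Spock2, a matrix proteoglycan, stood at 2.51 and 2.23 in the untreated tumours, against -3.10 and -2.77 in the parotid glands, and rose by 5.31 ± 0.29 (adjusted p = 0.000153). Gas6, the ligand of the Axl, Tyro3 and Mertk receptors, stood at 2.87 and 2.70 in tumour, against 5.10 and 5.71 in parotid, and fell by 2.62 ± 0.26 (adjusted p = 0.000852).

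Csf1, which drives macrophage growth, stood at 3.02 and 3.88 in tumour, against 1.21 and 1.35 in parotid, and rose by 2.18 ± 0.31 (adjusted p = 0.00296). Il34, the other ligand of the same receptor, stood at 0.00 and -0.31 in the untreated tumours, against 2.86 and 3.47 in the parotid glands, and fell by 3.32 ± 0.27 (adjusted p = 0.000461). Macrophage markers summed to 161 and 228 in the tumours, against 277 and 231 in the parotid glands. Mif, a cytokine of many cell types, stood at 5.95 and 6.04 in tumour, against 4.11 and 4.04 in parotid, and rose by 1.92 ± 0.21 (adjusted p = 0.00117).

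Peptide hormones and neuropeptides fell in 12 of 28 cases and rose in 3, with a median of -1.26, and leaving out 1 array gave 8 to 13 lower and 2 to 4 higher. Agt, the precursor of angiotensin, stood at -2.20 and -0.99 in tumour, against 7.02 and 6.96 in parotid, and fell by 8.58 ± 0.39 (adjusted p = 0.000111). Cck, cholecystokinin, stood at -7.43 and -7.75 in the untreated tumours, against 1.11 and 2.44 in the parotid glands, and fell at least 141-fold (adjusted p = 0.000148). Adcyap1, the neuropeptide PACAP, stood at -7.20 and -7.47 in tumour, against -0.01 and 1.11 in parotid, and fell at least 60.5-fold (adjusted p = 0.000299). Agt was still well above background in both tumours, and Cck and Adcyap1 were not well above background in the tumours. Pyy, a gut peptide, went the other way, at 0.34 and -0.66 in tumour, against -4.77 and -4.10 in parotid, and rose at least 10.69-fold in its brightest probe (adjusted p = 0.00478), with probe differences of 1.40 to 4.27.

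Defence proteins and related factors had 7 of 33 higher and 9 lower, with 4 to 10 and 7 to 12 when 1 array was left out. Pglyrp1, a peptidoglycan-binding protein of neutrophils, stood at 4.17 and 4.82 in the untreated tumours, against 1.08 and 1.21 in the parotid glands, and rose by 3.35 ± 0.26 (adjusted p = 0.000446). Of 4 neutrophil markers tested 2 rose and none fell, with sums of 41.2 and 37.1 in the tumours, against 4.21 and 68.0 in the parotid glands. Nearly all of the sum in parotid replicate 2 came from Ltf, at 6.08. The part of neutrophils in the Pglyrp1 result was not tested. Retnla, a resistin-like cytokine, stood at -4.14 and -5.29 in tumour, against 4.09 and 5.34 in parotid, and fell by 9.43 ± 0.53 (adjusted p = 0.000171), with tumour replicate 2 not well above background. Retn (resistin), a product of fat cells in mice, stood at -7.36 and -7.89 in tumour, against -0.73 and 0.57 in parotid, and fell at least 39.1-fold (adjusted p = 0.000325). Of the 5 other adipocyte markers tested 4 fell, and their part in these results was not tested. Chia1, a chitinase, stood at -5.09 and 3.06 in the untreated tumours, against 8.71 and 9.94 in the parotid glands, and fell by 10.34 ± 2.34 (adjusted p = 0.0165). Tumour replicate 2 held a clear Chia1 signal that tumour replicate 1 did not, and the difference was -6.26 without replicate 1 and -14.42 without replicate 2. On slide 1 alone, which holds parotid replicate 1 only, the call was lost (adjusted p = 0.0807).

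**Figure D5:**
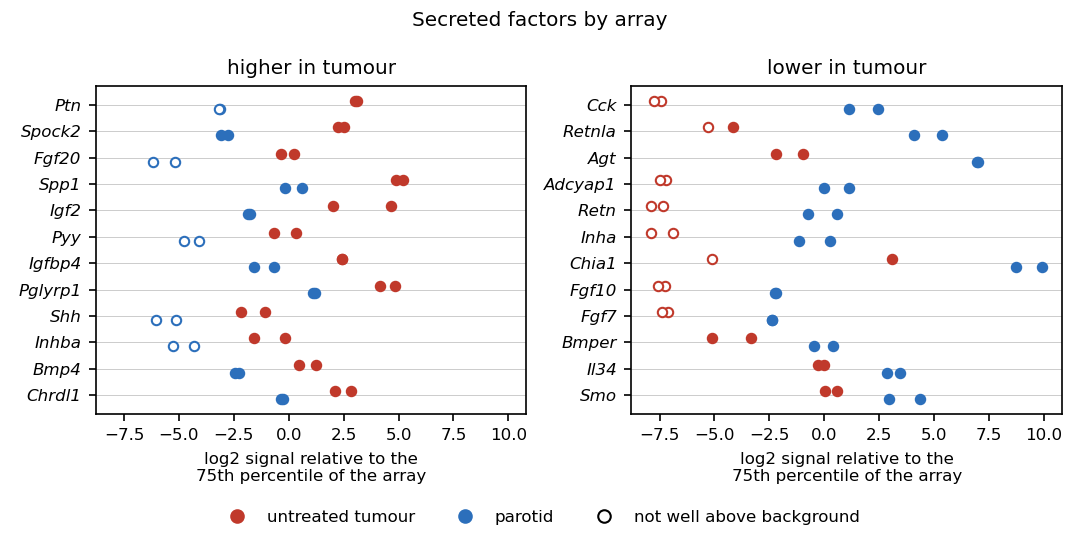
Each row is a secreted factor or hedgehog pathway gene and each dot 1 array, at its log2 signal relative to the 75th percentile of the array, for the 12 genes with the widest gap among the described genes that were higher (left panel) or lower (right panel) in untreated tumour. Red dots are the 2 untreated tumours, blue dots the 2 parotid glands, and open dots are not well above background. Ptn and Spock2 have both tumour dots above 2, and Cck has both tumour dots below -7 as open circles against filled parotid dots above 1.

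Apc, which restrains Wnt signalling, was also read. Apc stood at 0.30 and 0.03 in tumour, against -1.27 and -0.70 in parotid, with a difference of 1.15 ± 0.31 (adjusted p = 0.0288), and its probes ranged from -0.49 to 1.58. The Apc call was lost without tumour replicate 1 (adjusted p = 0.168) and without tumour replicate 2 (adjusted p = 0.103).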

How the data were processed

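Gene expression was measured in 8 mouse samples on 1-colour Agilent arrays, from Trizol-extracted total RNA per the labels. The deposited intensities, per the file headers, are Feature Extraction 10.7.3.1 processed signals (background-subtracted and detrended, not scaled between arrays), with mean and background intensities and quality calls, and probe positions on mm8. The deposited table of log2 values, with medians of 5.52 to 5.57, was an alternative only: its columns matched their own arrays, but its exact centring is not given.

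Log2 processed signals, scaled to the 75th percentile of their array, entered limma 3.58.1 (R 4.3.3) with 1 mean per group (5 groups, all 8 arrays), an intensity trend and two-sided Benjamini-Hochberg values over 16362 genes. Residual degrees of freedom were 3 and prior ones 3.28, and the procedure was tested on simulated data. Control spots and spots flagged as outliers were left out. Kept probes were well above background throughout at least 1 group, and the brightest probe stood for its gene. Genes were named through RefSeq where the accession or symbol matched. The number of arrays limits the precision.

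The 58 gene lists, the markers and the naming rule were chosen with earlier results of these data known. From each list, up to 3 called genes in each direction with the widest gap between groups qualified for naming, passing over clone-type names and genes of the secretory, division and Wnt lists. Apc, Egfr, Met, Fgfr2, Chrm3, Adrb1, Sox9, Sox2 and Myc were always read. Some genes that met the naming rule are not reported here. The condition on the higher group's brightness is part of the naming rule. Alternatives were quantile normalization, the deposited log2 values, normexp background correction (offset 50), other probe filters and summaries, slide or replicate number as a block, slide 1 alone, only the 4 arrays, at least 2-fold, no intensity trend, and leaving out each array. Deviations of same-numbered tumour and parotid arrays correlated at 0.01, which with 2 arrays per group cannot tell whether the numbers pair the samples. The sex-linked genes differed between same-numbered tumour and parotid arrays, so these did not come from the same animal.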

Additional observations from a re-analysis of the deposited data

How the results depend on the processing

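Over all genes, 6389 passed the threshold in the main setting, 3062 higher and 3327 lower in untreated tumour. Normexp background correction gave 4180 (2032 higher and 2148 lower), and the absence of a filter on dim probes 15343 with 11916 lower. The 4 compared arrays alone gave 4440 (2229 higher and 2211 lower). Leaving out 1 array gave 3034 to 8630 in all, 1383 to 4178 higher and 1606 to 4828 lower. The replicate block gave 5783 (2771 higher and 3012 lower), and its numbers do not mark tumour and parotid arrays of the same animal. Sox2, dim on all 4 arrays, changed sign to 0.84 with the deposited log2 values.

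Of 320 named genes past the threshold, 176 kept their call under every alternative run that held them. Normexp background correction lost 104 of the calls, 56 of them in that run only. Others were lost when 1 array was left out, more of them without a tumour array than without a parotid array. A gene missing from a run was not counted as lost. The run on probes well above background on all 4 arrays held only 167 named genes, so it did not test the genes given as bounds. The all-gene median difference was 0.02, against 0.12 with the deposited values, 0.11 with quantile normalization and -0.12 with normexp correction. Signal near background limits the genes given as bounds.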
